A study of Mus musculus with 8 samples.

Results

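Hox genes encode homeodomain transcription factors that give body segments their identity along the head to tail axis of the embryo. They lie in clusters in which the order of the genes follows the order of their expression, and genes at the same place in different clusters, which carry the same number, are called paralogs. In embryonic stem (ES) cells the clusters are known as long stretches of CpG-rich DNA held silent by Polycomb proteins, with little DNA methylation at the islands, and in blood several genes of the Hoxa and Hoxb clusters act in stem and progenitor cells.

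The members described here are all array probes named for a gene of the Hoxa, Hoxb, Hoxc or Hoxd cluster, 410 of the 88737 probes on the array, for 39 genes. Hoxa has 132 probes, Hoxb 103, Hoxc 80 and Hoxd 95. Of the 410 probes, 360 passed the filters on position, outlier marks and input signal and 50 did not. Used probes whose starts lie at most 500 bp apart were joined, which put 344 of them into 65 regions of 3 or more probes, out of 13183 such regions on the array, and left 16 in shorter runs. Hoxa and Hoxb have 17 regions each, Hoxc 15 and Hoxd 16. Every gene but Hoxa2, a hindbrain gene with 1 probe, has a region. Where a gene has several, they are numbered here by position along the chromosome. Hoxa lies on chromosome 6, and the other clusters span chromosome 11, 96064457 to 96228419 (Hoxb), chromosome 15, 102751860 to 102866437 (Hoxc) and chromosome 2, 74505717 to 74601954 (Hoxd), in genome build mm9. Names are those of the array design, and whether a region lies in an exon, an intron or a promoter was not annotated here.

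The assay was methylated DNA immunoprecipitation: sonicated, denatured DNA was pulled down with an antibody against methylated cytosine, and the bound DNA (Cy5) was set against input DNA of the same sample (Cy3) on a mouse CpG island array. The 8 samples were 1 array each of aid-/- liver, mbd4-/- liver, aid-/- spleen and mbd4-/- spleen, from C57BL6/J mice aged 6 months, and of aid-/-, mbd4-/-, Gadd45a knockdown and wild-type ES cells. Aid is a cytidine deaminase, Mbd4 a thymine glycosylase and Gadd45a a DNA damage response protein, and each has been linked to the removal of DNA methylation. The tissues have no wild-type array here. The labels do not give the strain of the ES cells, how the knockdown was made or whether DNA of several animals was pooled, and no group has a second array.

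A region's value is the mean over its probes of log2 bound over input, less the median of that array. It ranks a region against the rest of the array and is no percentage of methylation. Its spread is given as the SD over probes, which are not replicates, and a difference between 2 arrays has no test. Each array also has its own top: its plateau, set at the 98th percentile over autosomal regions, was 2.23 (aid-/- liver), 4.02 (mbd4-/- liver), 2.24 (aid-/- spleen) and 3.66 (mbd4-/- spleen), and 4.35, 4.31, 2.82 and 3.37 in aid-/-, mbd4-/-, Gadd45a knockdown and wild-type ES cells. Levels were therefore also read as a percentage of it. Of the bound probes in Hox regions, 68.6% were well above background on the aid-/- ES array and 86.3% to 95.3% on the other 7. The aid-/- arrays, wild-type ES included, were scanned on 1 day and the mbd4-/- arrays on other days, so aid-/- and mbd4-/- cannot be told apart from scan day. The number of arrays limits the precision.

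Probes of the regions strongly bound on both spleen arrays are shown first. They lie in 8 regions, all of them at Hoxa3, Hoxa5 or Hoxb3. Each is the probe of its region with the largest difference between liver with spleen and ES cells. Of these regions only Hoxa3 region 2 passed the test of liver and spleen against ES cells given below. Capitals mark CpG, the site of methylation. Letters are as the array design gives them. All 21 Hox probes that also occur in a RefSeq Hox promoter read as the plus strand, and positions are in mm9.
Hoxa3, region 1 (chr6:52122640-52122687): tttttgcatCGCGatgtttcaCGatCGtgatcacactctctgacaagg
Hoxa3, region 2 (chr6:52126186-52126240): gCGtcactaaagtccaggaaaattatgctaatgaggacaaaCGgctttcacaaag
Hoxa3, region 3 (chr6:52127106-52127159): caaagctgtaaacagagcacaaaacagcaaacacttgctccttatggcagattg
Hoxa5 (chr6:52154245-52154298): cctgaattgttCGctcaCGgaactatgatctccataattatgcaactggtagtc
Hoxb3, region 1 (chr11:96194036-96194080): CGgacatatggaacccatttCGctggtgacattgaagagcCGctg
Hoxb3, region 3 (chr11:96203242-96203286): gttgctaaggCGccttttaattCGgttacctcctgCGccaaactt
Hoxb3, region 4 (chr11:96205491-96205535): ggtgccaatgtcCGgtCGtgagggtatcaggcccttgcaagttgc
Hoxb3, region 5 (chr11:96207315-96207359): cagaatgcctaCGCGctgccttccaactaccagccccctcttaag
The region 3 probe of Hoxa3 holds no CpG, while the region 1 probe of Hoxa3 holds 4. Sonicated fragments are longer than a probe, so a probe reports the CpG sites near it as well as its own. Among the 8 regions lie 2 that were not strongly bound on any array, Hoxa4 between Hoxa3 and Hoxa5 and Hoxb3 region 2 between the first and the third Hoxb3 region, shown for contrast.
Hoxa4 (chr6:52142277-52142328): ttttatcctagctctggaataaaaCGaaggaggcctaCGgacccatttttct
Hoxb3, region 2 (chr11:96202147-96202192): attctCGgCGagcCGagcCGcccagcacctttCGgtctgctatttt
The opposite order, with every ES array above every liver and spleen array, held with the largest difference at Hoxb4 region 1. Hoxd12 was strongly bound in aid-/- and mbd4-/- ES cells but lowest in the Gadd45a knockdown. Both probes hold 1 CpG.
Hoxb4, region 1 (chr11:96175762-96175817): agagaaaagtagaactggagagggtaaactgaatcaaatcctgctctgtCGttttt
Hoxd12 (chr2:74513507-74513554): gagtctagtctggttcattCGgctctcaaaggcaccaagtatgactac
For Hoxa5 the RefSeq table also gives the promoter, 250 bases before and 50 after the start of the gene (GRCm38.p6, chromosome 6, minus strand), and 2 probes of the Hoxa5 region lie within it, at bases 38 to 90 and 144 to 188.
Hoxa5 promoter: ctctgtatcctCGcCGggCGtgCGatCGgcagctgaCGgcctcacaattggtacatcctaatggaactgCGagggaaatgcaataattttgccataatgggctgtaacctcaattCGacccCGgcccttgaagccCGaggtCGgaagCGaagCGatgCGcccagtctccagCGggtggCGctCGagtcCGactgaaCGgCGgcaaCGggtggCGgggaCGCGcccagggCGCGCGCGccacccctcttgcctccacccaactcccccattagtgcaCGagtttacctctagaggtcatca
It holds 29 CpG, against a median of 14.5 in the 24 Hox promoters of that table and 7 in all 32851. Of all promoters, 94.6% hold at least 1 CpG. The probe at bases 144 to 188 stood at 0.48 (aid-/- liver), 1.18 (mbd4-/- liver), 1.74 (aid-/- spleen) and 2.74 (mbd4-/- spleen), against 0.61, 1.36, 0.67 and 0.67 in aid-/-, mbd4-/-, Gadd45a knockdown and wild-type ES cells. The probe at bases 38 to 90 stood at 0.59 and 0.35 in the livers and 1.88 and 3.11 in the spleens, against 0.90, 0.12, −3.58 and −0.17 in the ES cells. Both spleen arrays lay above every other array at both promoter probes.

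Most Hox regions were bound close to the median of their array. The median over the 65 regions was 0.08 (aid-/- liver), −0.20 (mbd4-/- liver), 0.17 (aid-/- spleen) and −0.04 (mbd4-/- spleen), and −0.12, −0.07, −0.40 and −0.38 in aid-/-, mbd4-/-, Gadd45a knockdown and wild-type ES cells. A region was called strongly bound at 50% of its array's plateau or above. In liver this held for 0 of 65 Hox regions on both arrays, where 9.18% (aid-/-) and 8.65% (mbd4-/-) of all regions reached it. In spleen it held for 9 (aid-/-) and 8 (mbd4-/-) of 65, beside 9.74% and 10.5% of all regions. In ES cells it held for 1 in aid-/-, 2 in mbd4-/-, 3 in Gadd45a knockdown and 1 in wild type, beside 7.88%, 8.36%, 7.78% and 6.24% of all regions. In all, 13 Hox regions were strongly bound on at least 1 array. The 8 regions strongly bound on both spleen arrays are 4 at Hoxa3 and Hoxa5 and 4 at Hoxb3. The ninth in aid-/- spleen was Hoxb5 region 2.

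**Figure D1:**
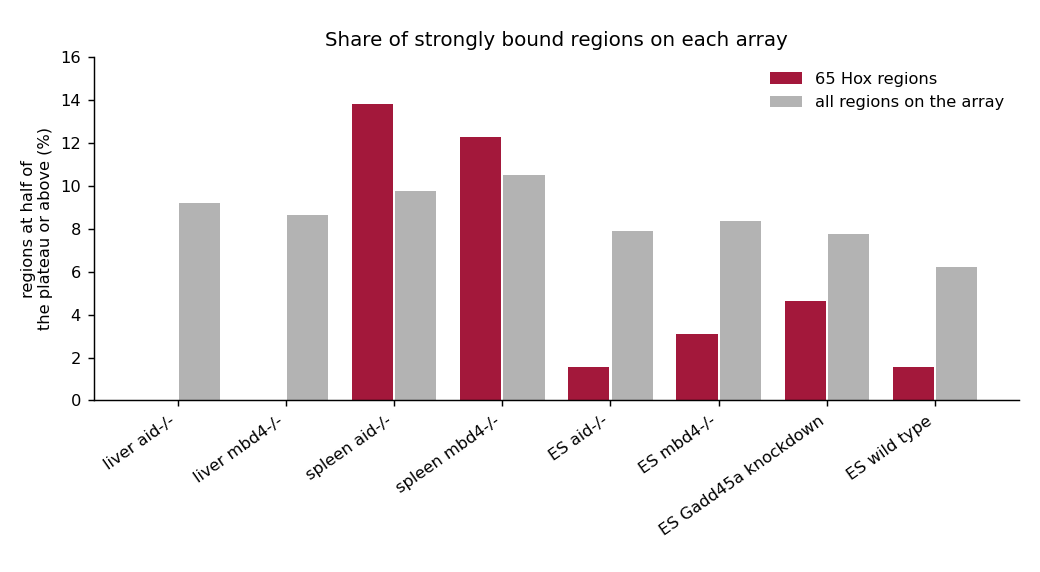
Percentage of regions at 50% of the array's plateau or above, for the 65 Hox regions (red) and all regions on the array (grey), on each of the 8 arrays. The Hox share is 0 on both liver arrays, 13.8% and 12.3% in aid-/- and mbd4-/- spleen, and 1.54% to 4.62% in ES cells.

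Hox regions were slightly poorer in G and C than other islands on the array, with a median of 54.0% against 56.7%, and held a median of 5.09 CpG per 100 bases against 5.55. The 8 regions strongly bound in spleen had a median of 55.2% and 5.37, against 53.9% and 5.05 in the other 57 Hox regions.

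**Figure D2:**
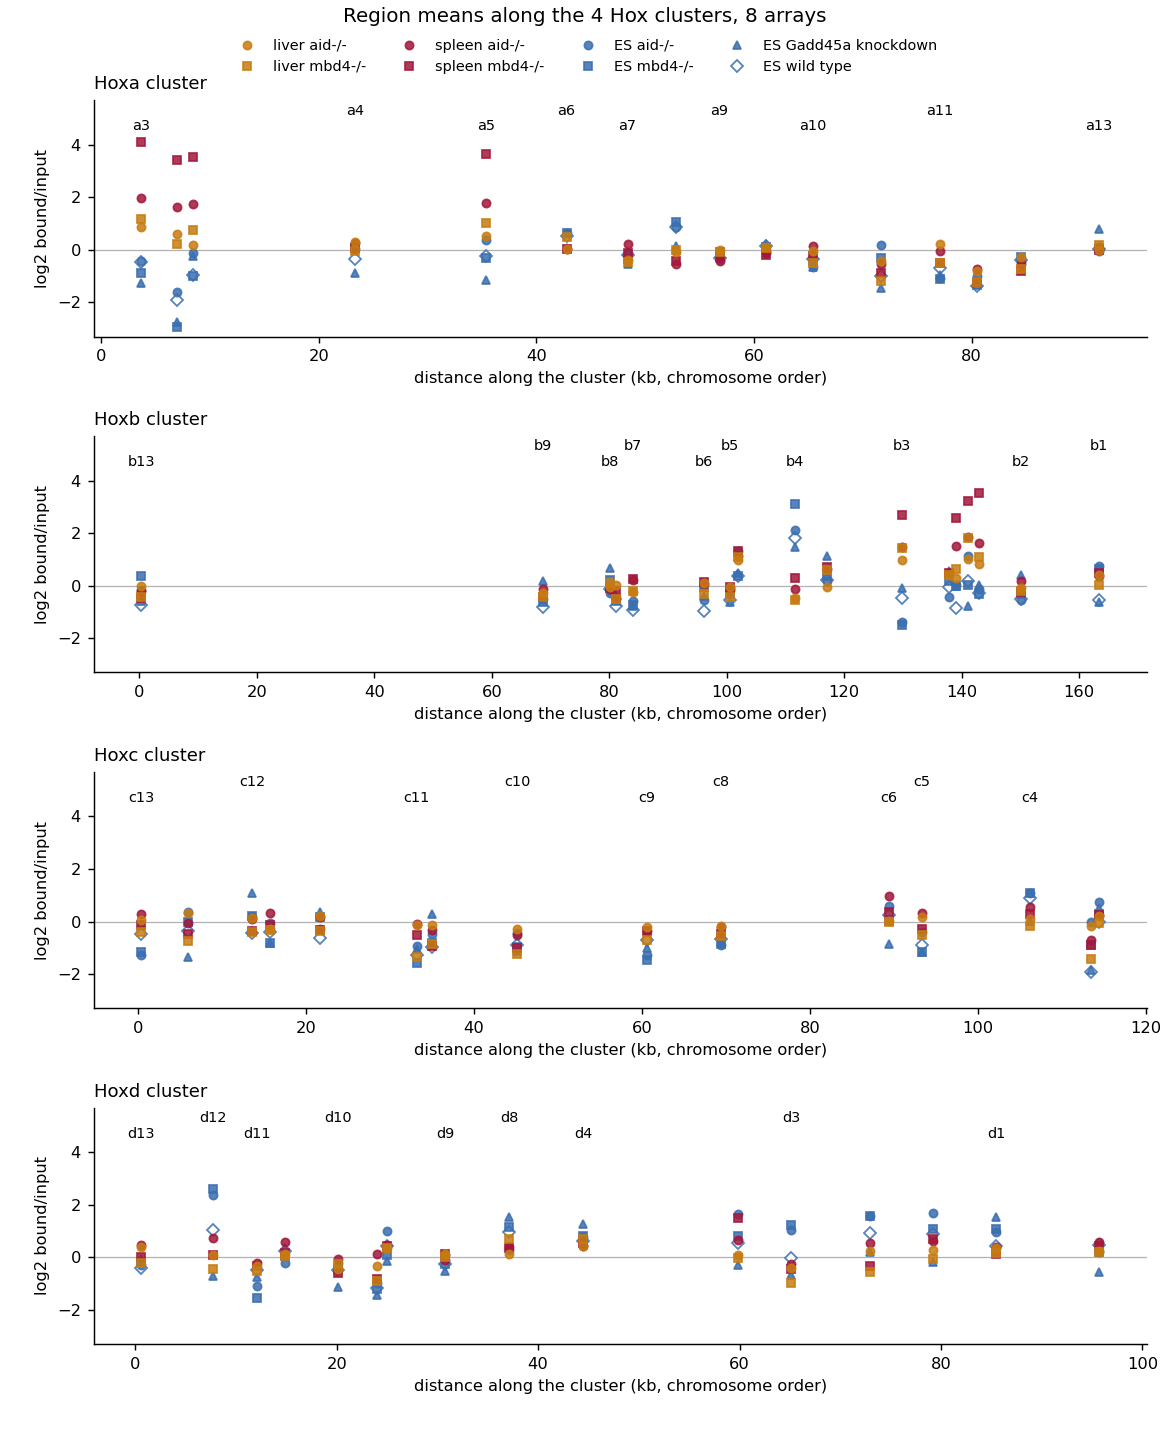
Mean log2 bound over input of Hox regions on the 8 arrays, against distance in kb along each cluster, in chromosome order. Gene numbers stand above their first region; red spleen symbols rise above the others at Hoxa3, Hoxa5 and Hoxb3, and blue ES symbols stand highest at the first Hoxb4 region and at Hoxd12.

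Liver and spleen were compared with ES cells to see which islands differ between adult tissue and pluripotent cells. All 4 liver and spleen arrays lay above all 4 ES arrays at 12 of the 65 Hox regions, beside 7.45% of all regions, and below them at 3, beside 4.2%. Among the 12 were the 3 Hoxa3 regions, Hoxa5, Hoxa11 region 1, Hoxb7, Hoxb3 regions 1, 3 and 5, Hoxc9 and Hoxd10 region 2. The 3 were Hoxa7 region 2, Hoxb4 region 1 and Hoxd1 region 1. In a limma fit over all 13183 regions, with arrays of different genotype standing as replicates of a tissue, 1 Hox region was higher and 1 lower in liver and spleen at a Benjamini-Hochberg adjusted p below 0.05. Over all regions 18 were higher (0.137%) and 11 lower (0.0834%). At an unadjusted p below 0.05 the Hox counts were 17 and 4, beside 9.28% and 5.86% of all regions. The median difference over the 65 Hox regions was 0.22, against 0.06 over all regions. Liver and spleen hold many cell types, so fewer cells of a type and weaker binding per cell cannot be told apart.

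Hoxa3, the paralog of group 3 known for shaping the pharyngeal arches, thymus and parathyroid, gave the largest fitted difference, at a region where ES signals were mostly not above background. Its region 2 (chromosome 6, 52125538 to 52126240, 3 probes) stood at 0.60 (aid-/- liver), 0.21 (mbd4-/- liver), 1.64 (aid-/- spleen) and 3.43 (mbd4-/- spleen), against −1.59, −2.93, −2.74 and −1.90 in aid-/-, mbd4-/-, Gadd45a knockdown and wild-type ES cells. Every liver and spleen array lay above every ES array, and spleen above liver in both genotypes. The difference of liver and spleen from ES cells was 3.76 ± 0.44 (SE), the 1 Hox region called higher (limma, adjusted p = 0.0213). Of its 3 bound probes, 0 were above background on the aid-/- and mbd4-/- ES arrays, 1 on the Gadd45a knockdown and 2 on the wild-type ES array, so the size of the difference and its SE rest in part on signals with no measured level. With the ES probes raised to at least the weakest bound signal above background on that array, mbd4-/- spleen was 42.1-fold above mbd4-/- ES cells. That signal is no upper limit for a probe below background, so the fold is no firm bound. The mbd4-/- spleen and mbd4-/- ES arrays also differ in scan day and software version. Spleen alone differed from ES cells by 4.82 ± 0.54 (limma, adjusted p = 0.0492) and liver alone by 2.69 ± 0.54 (adjusted p = 0.138). The call was lost with scan day as a block (2.86, adjusted p = 0.0611), with normexp background correction (1.23, adjusted p = 0.253), and without the aid-/- ES, wild-type ES, mbd4-/- ES or mbd4-/- liver array (adjusted p = 0.0649, 0.0701, 0.0966 and 0.11).

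The other Hoxa3 regions behaved alike but did not pass. Region 1 (chromosome 6, 52122417 to 52122773, 4 probes) stood at 0.88 (aid-/- liver), 1.18 (mbd4-/- liver), 1.98 (aid-/- spleen) and 4.12 (mbd4-/- spleen), against −0.42, −0.86, −1.25 and −0.46 in aid-/-, mbd4-/-, Gadd45a knockdown and wild-type ES cells. The mbd4-/- spleen value was the highest of any Hox region on any array, at 112.6% of the plateau. The difference of liver and spleen from ES cells was 2.79 ± 0.43 (SE; limma, adjusted p = 0.0514). Region 3 (chromosome 6, 52127106 to 52127579, 3 probes) stood at 0.17 (aid-/- liver), 0.74 (mbd4-/- liver), 1.75 (aid-/- spleen) and 3.52 (mbd4-/- spleen), against −0.12, −0.99, −0.23 and −0.97 in aid-/-, mbd4-/-, Gadd45a knockdown and wild-type ES cells, a difference of 2.12 ± 0.41 (adjusted p = 0.0738). In each of these regions the spleen arrays were highest, the livers came next and the ES arrays were lowest, with no overlap between tissues and ES cells.

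Hoxa5, a gene of the neck and upper trunk that is needed for lung and airway formation, followed the same order over more probes. Its region (chromosome 6, 52153690 to 52154799, 9 probes) stood at 0.52 (aid-/- liver), 1.04 (mbd4-/- liver), 1.78 (aid-/- spleen) and 3.64 (mbd4-/- spleen), against 0.39, −0.32, −1.16 and −0.25 in aid-/-, mbd4-/-, Gadd45a knockdown and wild-type ES cells. The SD over the 9 probes was 0.30 and 0.82 in aid-/- and mbd4-/- spleen and 2.37 in Gadd45a knockdown ES cells. The difference of liver and spleen from ES cells was 2.08 ± 0.45 (SE; limma, adjusted p = 0.0996). Scan day entered as a block left a difference of 1.08 (adjusted p = 0.274).

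The raised stretch of the Hoxa cluster was not unbroken. The 4 spleen-bound regions lie within 32.4 kb. Between Hoxa3 and Hoxa5, the Hoxa4 region (chromosome 6, 52142084 to 52142328, 3 probes) stood at 0.32 (aid-/- liver), −0.03 (mbd4-/- liver), 0.27 (aid-/- spleen) and 0.09 (mbd4-/- spleen), against 0.04, 0.07, −0.90 and −0.33 in aid-/-, mbd4-/-, Gadd45a knockdown and wild-type ES cells, and the spleen arrays overlapped the ES arrays there. About 1 kb before it, 2 Hoxa4 probes in a short run were higher in both spleens than on every other array. The first stood at −0.20 and −0.24 in the livers and 0.92 and 1.66 in the spleens (aid-/- and mbd4-/-), against −0.58, −0.44, −2.16 and −1.21 in aid-/-, mbd4-/-, Gadd45a knockdown and wild-type ES cells. The second stood at 0.44 and 0.27 in the livers and 0.78 and 2.02 in the spleens, against 0.29, −0.14, −0.70 and −0.12 in the ES cells. Other probes in runs too short to form a region were high in spleen further out on both sides. The Hoxa2 probe, before Hoxa3, stood at 0.24 and 0.94 in the livers and 1.96 and 3.31 in the spleens (aid-/- and mbd4-/-), against 1.32, 1.06, 0.48 and 0.05 in aid-/-, mbd4-/-, Gadd45a knockdown and wild-type ES cells. Of the 2 probes named Hoxa6 just past Hoxa5, the first stood at 0.86 and 2.31 in the livers and 2.01 and 3.96 in the spleens, against 2.19, 0.96, −0.30 and 0.74 in the ES cells in the same order. The aid-/- ES array was above aid-/- spleen at that probe. Past it, Hoxa6 itself and the regions of Hoxa7 to Hoxa13 were below 50% of the plateau on all 8 arrays.

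**Figure D3:**
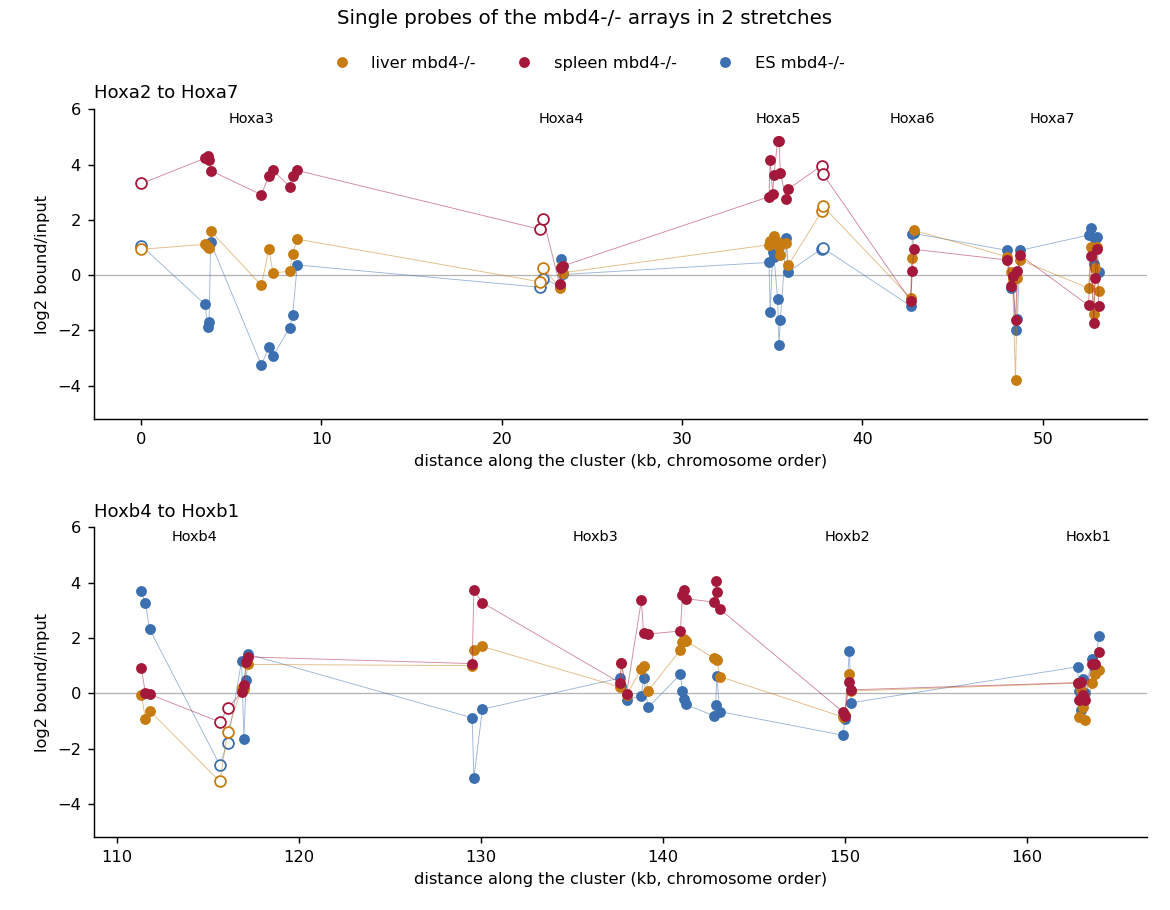
Log2 bound over input of single probes on the mbd4-/- liver (orange), mbd4-/- spleen (red) and mbd4-/- ES (blue) arrays, against distance in kb along the cluster, for Hoxa2 to Hoxa7 and Hoxb4 to Hoxb1. Open symbols are probes in runs too short for a region; spleen is high from Hoxa2 to past Hoxa5, lower at 2 short-run Hoxa4 probes and level with the others in the Hoxa4 region, and at Hoxb3 with a gap at its second region, while ES cells are high at the first Hoxb4 region.

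Hoxb3, the Hoxb paralog of Hoxa3, was also highest in both spleens in 4 of its 5 regions, which span 13.6 kb, and 3 of these 4 had no overlap between tissues and ES cells. Region 1 (chromosome 11, 96193941 to 96194547, 3 probes) stood at 0.97 (aid-/- liver), 1.43 (mbd4-/- liver), 1.48 (aid-/- spleen) and 2.69 (mbd4-/- spleen), against −1.37, −1.51, −0.10 and −0.46 in aid-/-, mbd4-/-, Gadd45a knockdown and wild-type ES cells. The spleens were highest and all 4 tissue arrays lay above all ES arrays, with a difference of 2.50 ± 0.40 (SE; limma, adjusted p = 0.0514). Region 5 (chromosome 11, 96207239 to 96207581, 4 probes) stood at 0.81 (aid-/- liver), 1.08 (mbd4-/- liver), 1.61 (aid-/- spleen) and 3.52 (mbd4-/- spleen), against −0.13, −0.32, 0.04 and −0.29 in aid-/-, mbd4-/-, Gadd45a knockdown and wild-type ES cells. The 4 ES arrays were close together there, and the difference was 1.93 ± 0.37 (adjusted p = 0.0738).

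Region 3 of Hoxb3 (chromosome 11, 96203242 to 96203658, 3 probes) stood at 0.31 (aid-/- liver), 0.65 (mbd4-/- liver), 1.51 (aid-/- spleen) and 2.56 (mbd4-/- spleen), against 0.02, −0.01, 0.00 and −0.84 in aid-/-, mbd4-/-, Gadd45a knockdown and wild-type ES cells, a difference of 1.46 ± 0.30 (limma, adjusted p = 0.0886). Region 4 (chromosome 11, 96205389 to 96205729, 4 probes) stood at 1.03 (aid-/- liver), 1.83 (mbd4-/- liver), 1.84 (aid-/- spleen) and 3.24 (mbd4-/- spleen), against 1.14, 0.05, −0.75 and 0.20 in aid-/-, mbd4-/-, Gadd45a knockdown and wild-type ES cells. Here the aid-/- ES array lay above the aid-/- liver array, so tissues and ES cells overlapped, and the difference was 1.83 ± 0.45 (adjusted p = 0.133). Region 2 (chromosome 11, 96202053 to 96202472, 3 probes) stood apart from its neighbours at 0.42 (aid-/- liver), 0.42 (mbd4-/- liver), 0.48 (aid-/- spleen) and 0.49 (mbd4-/- spleen), against −0.42, 0.20, 0.56 and −0.06 in aid-/-, mbd4-/-, Gadd45a knockdown and wild-type ES cells. Spleen and liver were level there, between 0.42 and 0.49, and the Gadd45a knockdown array was the highest of the 8. Hoxa3 region 3, Hoxa5 and Hoxb3 regions 3, 4 and 5 were named after their values were seen.

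Within one genotype, a region was listed when the arrays differed by at least 1 log2 and at least 75% of its probes agreed in direction. Against ES cells of the same genotype, aid-/- liver had 6 Hox regions listed higher (7.09% of all regions) and 6 lower (9.14%), and aid-/- spleen 10 higher (5.26%) and 6 lower (9.06%). In mbd4-/- the counts were 8 (5.29%) and 7 (5.89%) in liver, and 11 (8.9%) and 5 (7.49%) in spleen. Hoxa3 regions 1 and 2 and Hoxb3 region 1 were listed higher, and Hoxb4 region 1, Hoxd12 and Hoxd3 regions 1 and 2 lower, in each of these 4 pairs, of which pairs of one genotype share the ES array. In the mbd4-/- pairs the tissue and ES arrays differ in scan day and software version, so tissue cannot be told apart from these. The arrays of the aid-/- pairs shared both. With the arrays scaled to one plateau, Hoxd12 in aid-/- spleen (−0.71) and Hoxd3 region 2 in aid-/- liver (−0.88) and aid-/- spleen (−0.40) were no longer listed.

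Taken singly against the 4 ES arrays, spleen had 15 Hox regions higher (6.2% of all regions) and 3 lower (4.09%) at an unadjusted p below 0.05, and 1 higher (0.0152%), Hoxa3 region 2, and 0 lower (0.0152%) after adjustment in limma. Liver had 8 higher (5.8%) and 5 lower (3.03%) unadjusted, and 0 higher (0.129%) and 0 lower (0.0379%) after adjustment.

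Over the 33 probes of the 8 spleen-bound regions, both spleen arrays lay above all 4 ES arrays at 32, and all 4 tissue arrays did at 21. Spleen lay above liver at 32 of 33 probes in aid-/- and at 33 of 33 in mbd4-/-. Because the regions were picked for high spleen values, these counts describe how even the pattern was across probes and are no test.

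Hoxb4, known for its role in the self-renewal of blood stem cells, gave the reverse pattern. Its region 1 (chromosome 11, 96175762 to 96176259, 3 probes) stood at −0.45 (aid-/- liver), −0.53 (mbd4-/- liver), −0.14 (aid-/- spleen) and 0.29 (mbd4-/- spleen), against 2.12, 3.09, 1.49 and 1.80 in aid-/-, mbd4-/-, Gadd45a knockdown and wild-type ES cells. The 4 ES arrays were all raised, 3 of them (all but aid-/-) past 50% of their plateau, the 4 tissue arrays lay near the median of their array, and the groups did not overlap. The difference of liver and spleen from ES cells was −2.33 ± 0.34 (SE), the 1 Hox region called lower (limma, adjusted p = 0.0419). The call was lost with normexp background correction, low-mode centring and no dim-probe filter (adjusted p = 0.171, 0.0824 and 0.116), with scan day as a block (−2.26, adjusted p = 0.0515), and on leaving out any 1 array except the Gadd45a knockdown (adjusted p up to 0.143). The second Hoxb4 region lay between −0.06 (aid-/- liver) and 1.12 (Gadd45a knockdown ES cells), and tissues and ES cells overlapped there.

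**Figure D4:**
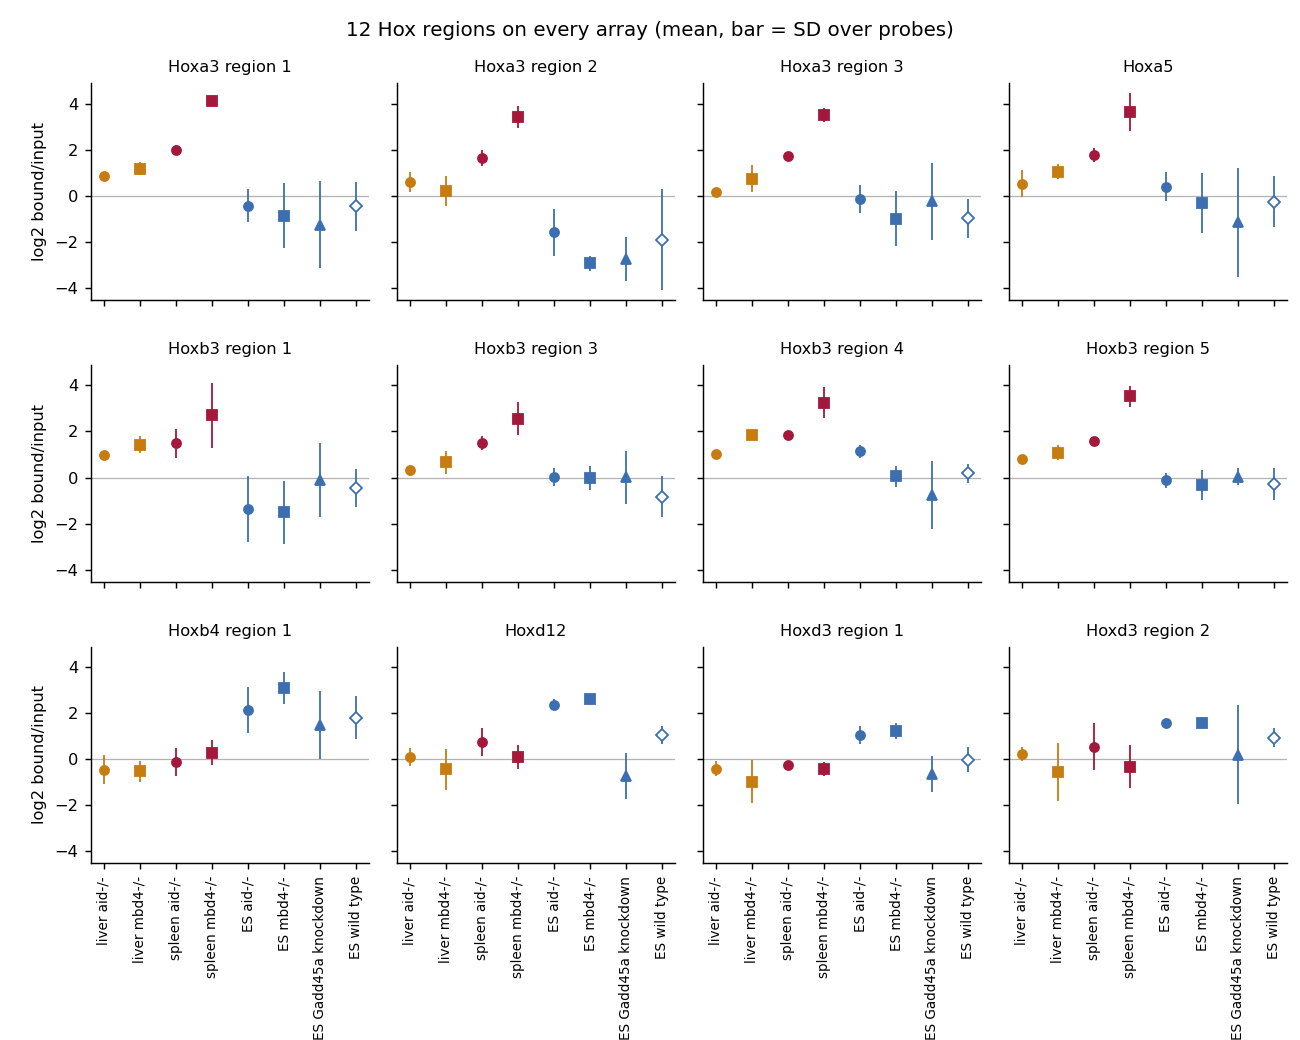
Mean log2 bound over input of 12 Hox regions on each array, with bars for the SD over the region's probes; liver is orange, spleen red and ES cells blue, and circles, squares, triangles and open diamonds stand for aid-/-, mbd4-/-, Gadd45a knockdown and wild type. In the upper 8 panels both spleen arrays are the highest or level with the highest, and in the lower 4 the aid-/- and mbd4-/- ES arrays are.

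In the Hoxc and Hoxd clusters no region passed in liver and spleen against ES cells. Of 15 Hoxc regions, all 4 tissue arrays lay above the ES arrays at 1, Hoxc9, a gene of thoracic identity (chromosome 15, 102812107 to 102812794, 5 probes). It stood at −0.19 (aid-/- liver), −0.70 (mbd4-/- liver), −0.35 (aid-/- spleen) and −0.36 (mbd4-/- spleen), against −1.29, −1.45, −1.02 and −0.72 in aid-/-, mbd4-/-, Gadd45a knockdown and wild-type ES cells, a difference of 0.72 ± 0.23 (limma, adjusted p = 0.216). Of its 5 bound probes 0 were above background on the aid-/- ES array, so the level there was not measured. The groups separated narrowly, with mbd4-/- liver at −0.704 and wild-type ES cells at −0.718. Hoxc5 (chromosome 15, 102844615 to 102845813, 9 probes) had the largest tissue difference of the Hoxc cluster, 0.84 ± 0.27 (adjusted p = 0.217), with 0.16 (aid-/- liver), −0.49 (mbd4-/- liver), 0.34 (aid-/- spleen) and −0.30 (mbd4-/- spleen), against −0.40, −1.17, −1.17 and −0.91 in aid-/-, mbd4-/-, Gadd45a knockdown and wild-type ES cells. The tissue and ES arrays overlapped at Hoxc5 through the mbd4-/- liver and aid-/- ES values.

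In the Hoxd cluster the largest differences ran the other way, with ES cells higher. Hoxd12, one of the posterior Hoxd genes that pattern the digits (chromosome 2, 74513187 to 74513658, 4 probes), stood at 0.10 (aid-/- liver), −0.44 (mbd4-/- liver), 0.75 (aid-/- spleen) and 0.09 (mbd4-/- spleen), against 2.37, 2.61, −0.72 and 1.05 in aid-/-, mbd4-/-, Gadd45a knockdown and wild-type ES cells. The aid-/-, mbd4-/- and wild-type ES arrays were above all tissue arrays and the Gadd45a knockdown array was below them all, so the difference of −1.20 ± 0.67 did not pass (limma, adjusted p = 0.438). Hoxd3, the third group 3 paralog, was not high in spleen. Its region 2 (chromosome 2, 74578542 to 74578824, 3 probes) stood at 0.23 (aid-/- liver), −0.56 (mbd4-/- liver), 0.55 (aid-/- spleen) and −0.32 (mbd4-/- spleen), against 1.58, 1.59, 0.20 and 0.94 in aid-/-, mbd4-/-, Gadd45a knockdown and wild-type ES cells, a difference of −1.10 ± 0.38 (adjusted p = 0.231). The aid-/- and mbd4-/- ES arrays were highest there and the aid-/- liver and spleen arrays lay above the Gadd45a knockdown.

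Hoxd1, a gene of the anterior end of the cluster, was below the ES arrays in liver and spleen at its region 1 (chromosome 2, 74590901 to 74591562, 5 probes), with 0.36 (aid-/- liver), 0.18 (mbd4-/- liver), 0.40 (aid-/- spleen) and 0.13 (mbd4-/- spleen), against 0.98, 1.096, 1.54 and 0.45 in aid-/-, mbd4-/-, Gadd45a knockdown and wild-type ES cells. The 4 tissue values ended just under the lowest ES value, and the difference was −0.75 ± 0.26 (limma, adjusted p = 0.231). Hoxd8 (chromosome 2, 74542744 to 74543004, 3 probes) stood at 0.12 (aid-/- liver), 0.70 (mbd4-/- liver), 0.40 (aid-/- spleen) and 0.36 (mbd4-/- spleen), against 0.29, 1.15, 1.55 and 0.95 in aid-/-, mbd4-/-, Gadd45a knockdown and wild-type ES cells. There the mbd4-/- liver and both spleen arrays lay among the ES arrays, above aid-/- ES cells. These 2 regions, at 1.54 and 1.55, were strongly bound in the Gadd45a knockdown by the plateau rule, whose level there was 1.41, the lowest of the ES arrays. The SD over probes on that array was 2.575 at Hoxd1 region 1 and 1.592 at Hoxd8, larger than the means, so the probes did not share one level.

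The region with the lowest mean over the 8 arrays is given for each cluster. In Hoxa it was Hoxa11 region 2, at a gene of the forearm, kidney and uterus (chromosome 6, 52199199 to 52199578, 4 probes), with −0.80 (aid-/- liver), −1.23 (mbd4-/- liver), −0.72 (aid-/- spleen) and −1.21 (mbd4-/- spleen), against −0.996, −1.35, −1.09 and −1.36 in aid-/-, mbd4-/-, Gadd45a knockdown and wild-type ES cells. In Hoxb it was Hoxb8 region 2 (chromosome 11, 96145251 to 96145793, 5 probes), with 0.02 (aid-/- liver), −0.50 (mbd4-/- liver), −0.46 (aid-/- spleen) and −0.18 (mbd4-/- spleen), against −0.49, −0.56, −0.36 and −0.78 in aid-/-, mbd4-/-, Gadd45a knockdown and wild-type ES cells. In Hoxd it was Hoxd10 region 2 (chromosome 2, 74529546 to 74529945, 4 probes), with −0.33 (aid-/- liver), −0.89 (mbd4-/- liver), 0.14 (aid-/- spleen) and −0.84 (mbd4-/- spleen), against −0.97, −1.20, −1.43 and −1.16 in aid-/-, mbd4-/-, Gadd45a knockdown and wild-type ES cells. All 4 tissue arrays lay above the ES arrays at Hoxd10 region 2 but not at the other two. The lowest of the Hoxc cluster, Hoxc4 region 2, is described with the ES cells.

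Paralog groups 1 to 4 held 24 regions, groups 5 to 8 held 14 and groups 9 to 13 held 27. The tissue arrays lay above all ES arrays at 7, 2 and 3 of them, beside 7.45% of all regions, and below at 2, 1 and 0, beside 4.2%. Strongly bound regions on the aid-/- spleen array numbered 7, 2 and 0 in these groups, beside 9.74% of all regions, and on the mbd4-/- spleen array 7, 1 and 0, beside 10.5%. The 37 Hox regions left after the 23 named by the rule and the 5 named after their values were seen, Hoxa4 and Hoxb3 region 2 among the 37, ranged from −1.58 to 1.32 on any array, and their differences of liver and spleen from ES cells from −0.99 to 0.77.

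Between Hoxc4 regions 1 and 2 lie 2 probes, too few for a region, and the second of them repeated the ES-high pattern. That probe stood at −0.66 and −0.94 in the livers and −2.33 and −0.72 in the spleens (aid-/- and mbd4-/-), against 2.92, 3.20, 1.02 and 1.58 in aid-/-, mbd4-/-, Gadd45a knockdown and wild-type ES cells. The first is not described here. Every ES array lay above every tissue array at this probe, which was named after its values were seen.

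Liver was compared with spleen to see whether the adult tissues differ. No region passed in either direction (limma, 0 of 13183 each way). At an unadjusted p below 0.05, 0 Hox regions were higher and 6 were lower in liver, beside 0.781% and 0.637% of all regions. The 6 were the 3 Hoxa3 regions, Hoxa5 and Hoxb3 regions 3 and 5. Hoxa3 region 3 differed by −2.18 ± 0.58 (SE, unadjusted p = 0.00454), Hoxb3 region 3 by −1.56 ± 0.43 (0.00595) and Hoxa3 region 2 by −2.13 ± 0.63 (0.00813). By the rule of size within one genotype, in aid-/- no Hox region was listed higher in liver, beside 0.379% of all regions, and 5 were listed lower, beside 0.319%. In mbd4-/- the counts were 0, beside 1.46%, and 9, beside 3.43%. The 5 are the 3 Hoxa3 regions, Hoxa5 and Hoxb3 region 3. The 9 are the same 5, the other strongly bound Hoxb3 regions and Hoxd4 region 2, which stood at −0.04 (liver) and 1.50 (spleen).

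The aid-/- ES cells were compared with wild type to see whether islands differ without the deaminase. By the same rule of size 5 of 65 Hox regions were listed higher, beside 6.77% of all regions, and 0 lower, beside 3.71%. The largest was Hoxc4 region 2 (chromosome 15, 102865150 to 102865470, 3 probes), with −0.01, −0.88 and −1.86 in aid-/-, mbd4-/- and Gadd45a knockdown ES cells, against −1.91 in wild-type ES cells. The aid-/- array was highest, by 1.91 over wild type, and 2 of the 3 bound probes were above background on each of those arrays. In the tissues it stood at −0.16 (aid-/- liver), −1.41 (mbd4-/- liver), −0.69 (aid-/- spleen) and −0.90 (mbd4-/- spleen).

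The aid-/- array and the mbd4-/- array share the wild-type array as their control, so their differences are not independent. In mbd4-/- ES cells 6 Hox regions were listed higher than wild type, beside 7.95% of all regions, and 1 lower, beside 2.42%. Hoxb1, a hindbrain gene at the anterior end of its cluster (chromosome 11, 96227214 to 96228419, 8 probes), had 0.73, 0.65 and −0.63 in aid-/-, mbd4-/- and Gadd45a knockdown ES cells, against −0.54 in wild-type ES cells, and was listed in both mutants (1.28 and 1.19). The Gadd45a knockdown lay next to wild type. In the tissues Hoxb1 stood at 0.41 (aid-/- liver), 0.01 (mbd4-/- liver), 0.38 (aid-/- spleen) and 0.48 (mbd4-/- spleen). Hoxd12 was listed in both too, by 1.33 (aid-/-) and 1.56 (mbd4-/-), as was Hoxd3 region 1 (chromosome 2, 74570711 to 74571044, 3 probes), with 1.03, 1.24 and −0.66 in aid-/-, mbd4-/- and Gadd45a knockdown ES cells, against −0.02 in wild-type ES cells, and Hoxc4 region 2. Hoxd3 region 1 stood at −0.41 (aid-/- liver), −0.97 (mbd4-/- liver), −0.24 (aid-/- spleen) and −0.42 (mbd4-/- spleen), below the aid-/- and mbd4-/- ES arrays.

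Listed in 1 of the mutants were Hoxd4 region 2, Hoxb13, Hoxb4 region 1 and Hoxd11 region 1. Hoxd4 region 2 (chromosome 2, 74565400 to 74565766, 4 probes) had 1.64, 0.81 and −0.30 in aid-/-, mbd4-/- and Gadd45a knockdown ES cells, against 0.53 in wild-type ES cells, listed in aid-/- by 1.11. In the tissues it stood at 0.08 (aid-/- liver), −0.04 (mbd4-/- liver), 0.66 (aid-/- spleen) and 1.50 (mbd4-/- spleen), where mbd4-/- spleen was close to the aid-/- ES value. Hoxb13, the most posterior Hoxb gene and known from the prostate and tail bud (chromosome 11, 96064572 to 96065012, 4 probes), had −0.17, 0.36 and −0.56 in aid-/-, mbd4-/- and Gadd45a knockdown ES cells, against −0.73 in wild-type ES cells, listed in mbd4-/- by 1.096. The tissues, at 0.01 (aid-/- liver), −0.43 (mbd4-/- liver), −0.21 (aid-/- spleen) and −0.48 (mbd4-/- spleen), lay between the extremes of the ES arrays. Hoxb4 region 1 was listed in mbd4-/- by 1.29. Hoxd11 region 1 (chromosome 2, 74517683 to 74517945, 3 probes), of a gene that patterns the forearm, had −1.09, −1.56 and −0.75 in aid-/-, mbd4-/- and Gadd45a knockdown ES cells, against −0.49 in wild-type ES cells, listed lower in mbd4-/- by −1.07. Its tissue values were −0.31 (aid-/- liver), −0.53 (mbd4-/- liver), −0.19 (aid-/- spleen) and −0.32 (mbd4-/- spleen), above the aid-/- and mbd4-/- ES arrays. Of its 3 bound probes 0 were above background on the aid-/- ES array, so the level there was not measured.

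These lists changed with the scaling of the arrays. With the arrays scaled to one plateau, 3 Hox regions were listed higher in aid-/-, Hoxb1 and Hoxc4 region 2 among them, beside 342 of all 13183 regions. In mbd4-/- 3 were higher, beside 389 of all regions, and 0 lower, beside 131. These 3 were Hoxb13, Hoxb1 and Hoxc4 region 2. Hoxd12 then differed by 0.80 and 1.00 and Hoxd3 region 1 by 0.82 and 0.99 (aid-/- and mbd4-/-), below the rule. With normexp background correction neither mutant had a listed Hox region, and few regions of the array were listed. In aid-/- 243 of all regions were higher and 4 lower, and in mbd4-/- 163 and 16. In the deposited values Hoxd12 was lower in aid-/- than in wild type, by −0.24.

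The mbd4-/- and Gadd45a knockdown ES arrays were each scanned alone on a day of their own and read with another software version than the wild-type ES array, so in both comparisons group cannot be told apart from scan day and software; the aid-/- ES array shared both with wild type. In Gadd45a knockdown ES cells 2 Hox regions were listed higher than wild type, beside 7.59% of all regions, and 3 lower, beside 5.88%. Hoxc12 region 1 (chromosome 15, 102765273 to 102765613, 4 probes) had 0.19, 0.20 and 1.099 in aid-/-, mbd4-/- and Gadd45a knockdown ES cells, against −0.42 in wild-type ES cells, a difference of 1.52. Hoxc11 region 2 (chromosome 15, 102786687 to 102786979, 3 probes) had −0.46, −0.80 and 0.28 in aid-/-, mbd4-/- and Gadd45a knockdown ES cells, against −0.97 in wild-type ES cells, a difference of 1.24. Both are posterior Hoxc genes, and the knockdown was the highest of the 8 arrays at both: the tissues stood at 0.14 (aid-/- liver), −0.41 (mbd4-/- liver), 0.10 (aid-/- spleen) and −0.34 (mbd4-/- spleen) at Hoxc12 region 1, and at −0.12 (aid-/- liver), −0.83 (mbd4-/- liver), −0.33 (aid-/- spleen) and −0.94 (mbd4-/- spleen) at Hoxc11 region 2.

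The regions listed lower in the knockdown were Hoxd12, Hoxc6 and Hoxd3 region 3. Hoxd12 differed by −1.76 and by −1.01 with normexp background correction. Hoxc6, a thoracic gene (chromosome 15, 102841127 to 102841475, 3 probes), had 0.59, 0.04 and −0.84 in aid-/-, mbd4-/- and Gadd45a knockdown ES cells, against 0.27 in wild-type ES cells, a difference of −1.11, and with GC correction of −0.61, below the rule. Its tissue values were 0.03 (aid-/- liver), −0.01 (mbd4-/- liver), 0.97 (aid-/- spleen) and 0.37 (mbd4-/- spleen). Hoxd3 region 3 (chromosome 2, 74584345 to 74585445, 9 probes) had 1.69, 1.097 and −0.18 in aid-/-, mbd4-/- and Gadd45a knockdown ES cells, against 0.90 in wild-type ES cells, a difference of −1.08 over 9 probes. In the tissues it stood at 0.27 (aid-/- liver), −0.07 (mbd4-/- liver), 0.63 (aid-/- spleen) and 0.69 (mbd4-/- spleen), above the knockdown array.

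**Figure D5:**
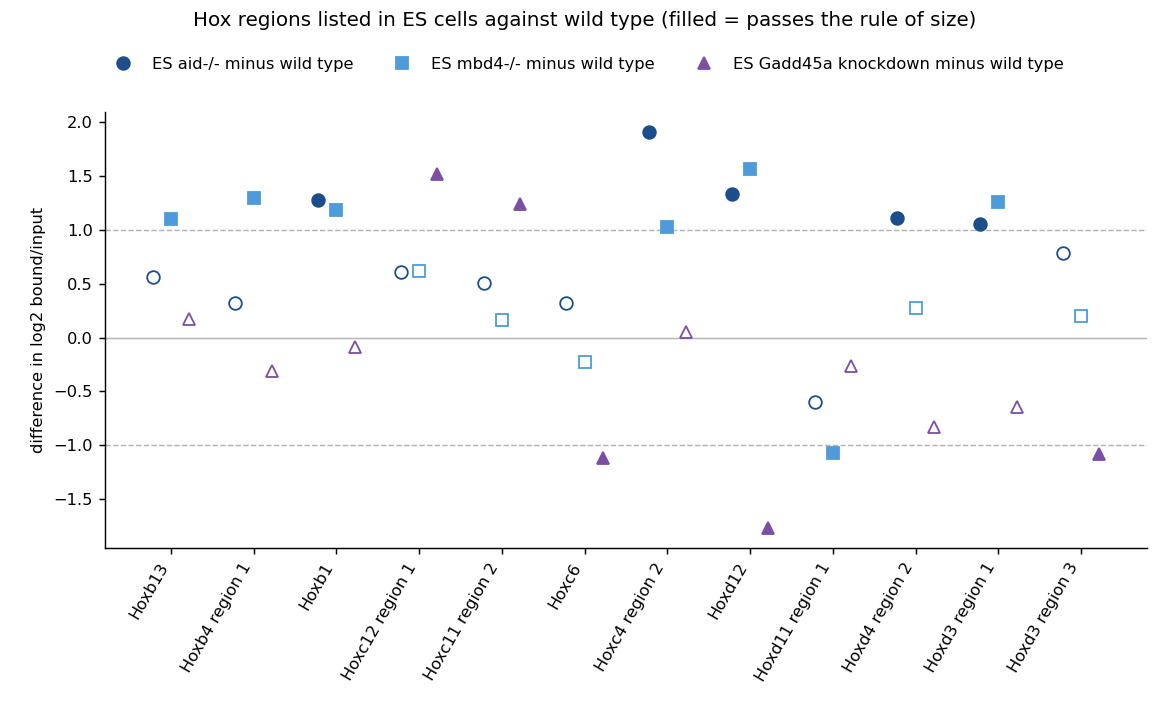
Difference in log2 bound over input from wild-type ES cells for the 12 Hox regions listed in at least 1 of the 3 ES comparisons (circles aid-/-, squares mbd4-/-, triangles Gadd45a knockdown; filled where the rule of size was passed, dashed lines at 1 and −1). All 3 share the wild-type array; at Hoxd12 the differences are 1.33 (aid-/-), 1.56 (mbd4-/-) and −1.76 (Gadd45a knockdown).

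The aid-/- and mbd4-/- genotypes were compared over liver, spleen and ES cells, a comparison that scan day shares. No region passed in either direction (limma, 0 of 13183 each way). At an unadjusted p below 0.05, 9 Hox regions were higher and 0 lower in aid-/-, beside 2.9% and 9.84% of all regions, 6 of them in the Hoxc cluster and all with an adjusted p of at least 0.387. Between single arrays, 0 Hox regions were listed higher (0.182% of all regions) and 8 lower (8.15%) in aid-/- spleen than in mbd4-/- spleen. These are the 8 strongly bound regions, with differences of −2.14 (Hoxa3 region 1) to −1.05 (Hoxb3 region 3). The plateau of the aid-/- spleen array was also lower, and with both arrays scaled to one plateau none of the 8 was listed and their differences ran from −0.82 to −0.09. Under that scaling 3 other Hox regions were listed higher in aid-/- spleen. In liver 3 were listed higher in aid-/- (0.88% of all regions) and 0 lower (8.01%), and in ES cells 2 higher (1.7%) and 0 lower (3.47%). With one plateau, 1 Hox region was listed higher and 0 lower in aid-/- in liver, and likewise in ES cells. The shares of all regions under that scaling are not given here.

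The genes around the Hox clusters were described by lists chosen with earlier results of these data known. Of 11 cofactor and neighbour genes (Pbx, Meis, Pknox and Evx), 8 had 19 regions, of which 0 passed the tissue test and 0 separated all tissue from all ES arrays. In ES cells 1 of 19 was listed higher and 1 lower in aid-/-, beside 6.77% and 3.71% of all regions, 4 higher in mbd4-/-, beside 7.95%, and 5 higher in the knockdown, beside 7.59%. A region of Meis2, which encodes a Hox cofactor (chromosome 2, 115887946 to 115888259), was instead high in liver, at 1.35 (aid-/- liver), 2.63 (mbd4-/- liver), −0.09 (aid-/- spleen) and −0.85 (mbd4-/- spleen), against −1.19, −1.63, −0.72 and −1.10 in aid-/-, mbd4-/-, Gadd45a knockdown and wild-type ES cells. Its mbd4-/- spleen value lay among the ES arrays, and the difference of liver and spleen from ES cells was 1.92 ± 0.34 (limma, adjusted p = 0.065); it was named after its values were seen.

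Of 8 regulators that act upstream of Hox genes, 7 had 12 regions, and at 3 of the 12 all tissue arrays lay above the ES arrays, beside 7.45% of all regions. A region of Rara, a retinoic acid receptor gene (chromosome 11, 98797438 to 98797773), stood at 0.24 (aid-/- liver), 0.57 (mbd4-/- liver), 1.50 (aid-/- spleen) and 2.57 (mbd4-/- spleen), against −0.47, −0.19, −0.21 and −0.13 in aid-/-, mbd4-/-, Gadd45a knockdown and wild-type ES cells. The spleens were highest there, as at Hoxa3 and Hoxb3, and the difference was 1.47 ± 0.26 (limma, adjusted p = 0.063). The other 2 were a second Rara region (0.855) and a Cdx2 region (0.625), the gene of a caudal homeodomain factor. None passed the test.

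Of 15 Polycomb genes, 14 had 22 regions, 0 of which passed. Tissue arrays lay above all ES arrays at 1 of 22, of Cbx7 (1.31), beside 7.45% of all regions, and below at 1, beside 4.2%, of Cbx8 (chromosome 11, 118906225 to 118906699). This Cbx8 region stood at −0.19 and 0.25 in the livers and 0.34 and 0.24 in the spleens (aid-/- and mbd4-/-), against 3.05, 3.11, 1.02 and 1.82 in aid-/-, mbd4-/-, Gadd45a knockdown and wild-type ES cells, a difference of −2.09 ± 0.46 (limma, adjusted p = 0.103). Other Cbx8 regions differed by −0.005 (17 probes) and −0.97 (4 probes), and tissues and ES cells overlapped at both. Of 8 trithorax and demethylase genes 2 had 4 regions, and 1 of the 4, of Wdr5 (0.72), was above the ES arrays in all tissue arrays, beside the same 7.45%.

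Few markers of cell type lie on the array: 2 of 8 for ES cells, 1 of 7 for liver, 2 of 8 for blood and spleen and 4 of 6 for fibroblasts had a region. They report methylation and not expression, and 0 of their 13 regions passed the tissue test. The 2 blood genes differed from each other. Ikzf1 stood at −0.63 and −0.34 in the livers and −0.85 and −1.08 in the spleens (aid-/- and mbd4-/-), against −0.90, −0.42, −0.24 and −1.17 in the ES cells in the order above, with overlap. Zap70 stood at 1.42 and 2.25 in the livers and 1.97 and 3.24 in the spleens, against 1.33, 1.80, −0.60 and 0.62 in the ES cells in the order above. The part of cell make-up in the spleen values at Hoxa3, Hoxa5 and Hoxb3 was not tested.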

How the data were processed

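DNA methylation was measured by immunoprecipitation on a 2-colour mouse CpG island array, 1 array for each of 8 groups. Per the file headers, the authors scanned and quantified arrays with Agilent Feature Extraction 10.7.3.1 (mbd4-/- and Gadd45a knockdown ES cells, with spatial detrending) or 10.9.1.1 (the other 6), and coordinates are mm9. The deposited intensity values used are the processed signals of both channels, already background-subtracted and dye-normalized; the deposited log10 ratio was used to check direction. Per the labels, input carried Cy3 and bound DNA Cy5 on all arrays. A second deposited table holds a score per probe made by the authors, with log base, scale and centring unknown and array medians of −0.21 to −0.03. It ran the same way as the scanner ratio (r = 0.901 to 0.974 over probes) and served as an alternative after rescaling by 1.282, the average over arrays of the SD of log2 scanner ratios.

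Log2 of bound over input was centred on the median of all 88737 probes of each array, with no loess or quantile step. Probes were left out for no position (326), an outlier mark (132) or dim input (7174), leaving 81105. Those with starts at most 500 bp apart formed regions, of which the 13183 with 3 or more probes were kept. limma 3.58.1 in R 4.3.3 tested liver and spleen against ES cells and liver against spleen over 8 arrays, and aid-/- against mbd4-/- over 6 with tissue as a covariate, with Benjamini-Hochberg adjustment over all 13183 regions and a threshold of 0.05. No separate animals or cultures replicate a group, so the p-values measure the spread between arrays of different genotype. Single arrays were compared by size alone, at least 1 log2 and 75% of probes. The number of arrays limits the precision.

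Values on every array are given for Hox regions listed in an ES comparison with wild type, strongly bound on an ES array or on all 4 tissue arrays, with the 2 largest tissue differences or the lowest mean of their cluster, or called in liver against spleen or aid-/- against mbd4-/-; 5 more regions, the contrasting Hoxa4 and Hoxb3 region 2 and a few single probes were named after their values were seen. The members, lists and rules were chosen with earlier results of these data known. Alternatives covered background correction (normexp, offset 50, on median signals), centring, scaling to one plateau, GC correction, probe filters, region size and joining, scan day and slide as blocks, and each array left out. The values of 1 gene enter the counts but are not reported here. No genome of build mm9 was used here. Python 3.11.15, pandas 2.3.3, numpy 2.4.6 and matplotlib 3.10.9 were used.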

Additional observations from a re-analysis of the deposited data

Results flagged for a closer look

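At Hoxb3 region 3 the wild-type ES array stood apart from the other ES arrays, at −0.84, against 0.02, −0.01 and 0.00 in aid-/-, mbd4-/- and Gadd45a knockdown ES cells. It was the 1 of 56 groups of 4 arrays checked in which an array lay this far from the others, by Dixon's criterion at the 95% level, and chance alone gives such marks at about that level's error rate.

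At 2 regions the computed difference of aid-/- from mbd4-/- had opposite signs in ES cells and spleen, and the difference between tissues was not tested. At Hoxa3 region 2 it was 1.34 in ES cells and −1.79 in spleen, but 0 bound probes were above background on either ES array, so the sign and size in ES cells were not measured. Hoxb3 region 4 differed by 1.09 in ES cells and by −1.40 in spleen. With the arrays scaled to one plateau the spleen differences were −0.69 and −0.21, below the rule of size.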

How the results depend on the processing

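Of 406 single-region values recomputed under alternatives, 405 kept the direction and 1 reversed: Hoxd12 in aid-/- against wild-type ES cells was −0.24 in the deposited values. The regions were those listed against wild-type ES cells or with the smallest limma p-values, and the arrays were the same. A kept direction was therefore likely from the start and is no test. Of the 406, 19 moved by at least the SD over probes, 17 lost a limma call and 24 gained one. Apart from regions that a setting removes, the cause was not tested for any change given here. Counts of Hox regions moved more. Of the 13 strongly bound on at least 1 array, 5 were so in the deposited values (43 Hox regions) and 2 with 5 or more probes per region (30 regions). Of the 8 on both spleen arrays these settings gave 4 and 1. The setting of 5 or more probes removes every region with fewer. Of the 13 it kept only Hoxa5 (9 probes) and Hoxd1 region 1 (5 probes). Hoxa3 region 2 and Hoxb4 region 1, the regions called in the limma fit, have 3 probes each and could not be called under it. Of the 4 on at least 1 ES array, normexp gave 2, and the deposited values, 5 or more probes and a stricter level gave 1 each.

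In aid-/- ES cells, 5 listed higher became 0 (normexp), 13 (low-mode centring), 3 (one plateau, deposited values), 9 (no dim-probe filter), 8 (median of used probes), 1 (5 or more probes) and 1 (1.5 log2). The 893 listed higher over all regions became, in the same order, 243, 1583, 342 and 340, 1201, 1147, 349 and 283. With GC correction 0 lower became 1, and the 489 lower over all regions became 269. In mbd4-/- ES cells, 6 higher became 0 (normexp), 3 (one plateau) and 1 (5 or more probes, 1.5 log2). The 1048 higher over all regions became 163, 389, and 429 and 310. The 1 lower became 0 under normexp, low-mode centring, one plateau, deposited values, GC correction, 5 or more probes and 1.5 log2. Beside it, the 319 lower over all regions became 16, 212, 131, 122, 319, 147 and 58. In the knockdown, 2 higher became 0 (normexp, 5 or more probes), 1 (low-mode centring, 1.5 log2), 4 (one plateau) and 5 (GC correction). The 1001 higher over all regions became 103 and 485, 528 and 245, 1389, and 852. The 3 lower became 9 (low-mode centring), 6 (one plateau, no dim-probe filter), 5 (median of used probes) and 1 (5 or more probes, 1.5 log2). Beside them, the 775 lower over all regions became 1106, 860 and 889, 851, and 327 and 383.

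In liver and spleen against ES cells (limma, adjusted), 1 higher became 0 under normexp, 5 or more probes, the scan-day block and liver alone. It became 8 (one plateau), 4 (deposited values), 3 (GC correction, slide block) and 2 (no dim-probe filter, median of used probes), and 0 to 3 without 1 ES array. The 18 higher over all regions moved too, in the same order to 1, 8, 0 and 17. They then became 363, 324, 39 and 45, 21 and 23, and 0 to 75. The 1 lower became 0 under normexp, low-mode centring, deposited values, no dim-probe filter, 5 or more probes, the scan-day block, spleen alone and liver alone. Without 1 ES array it became 0 to 2. The 11 lower over all regions became, in the same order, 0, 4, 35, 9, 2, 5, 2 and 5, and 1 to 123 without 1 ES array. The 12 regions above all ES arrays became 5 (deposited values, 5 or more probes) and 12 to 19 without 1 array. The 3 below became 1 (low-mode centring, deposited values), 6 (GC correction) and 3 to 9 without 1 array. The 554 of all regions below became 462 and 284, 631, and 636 to 986. Liver against spleen gave 0 in all. For aid-/- against mbd4-/-, leaving out 1 array gave 0 to 1 higher and 0 to 3 lower. The calls arose without the aid-/- or the mbd4-/- ES array, where 58 of all regions were higher and 1070 lower.

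No paired analysis was possible because the labels give no replicate numbers and each group has 1 array, so no block by replicate exists; aid-/- against mbd4-/- was matched by tissue through its covariate. The slide block could not be fitted for aid-/- against mbd4-/-. The median of used probes, liver or spleen alone, and the counts of separated or strongly bound regions were chosen after seeing the data. Values of weakly bound probes rest on signals near background, most of all on the aid-/- ES array.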
